A study of Rattus norvegicus with 16 samples.

Results

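A rule on group means chose 60 genes whose mean level in the hippocampus was higher in old sedentary rats than in every other group. The rule also asked for similar means in the young groups, so further genes highest in old sedentary rats were left out. The chosen genes are a small set, 60 of the 32754 gene IDs in the count table and 0.449% of the 13357 IDs that met the abundance limit. They were chosen from the measured levels themselves. Counts were scaled to a common library total (CPM, the usual scaled read count) and averaged within each group. A gene was kept when its mean over the 16 libraries was at least 2 CPM, its old sedentary mean was at least 1.5 times the young sedentary mean, its old trained mean was at most 0.67 times the old sedentary mean, and its young trained mean was between 0.8 and 1/0.8 times the young sedentary mean. The 4-group pattern is therefore how the genes were selected. It is described below without a test, and the old sedentary libraries enter both of the ratios that define it. The count table gives Ensembl IDs without symbols, and the reference gene table matched 0 of them. The genes are therefore described by their values, and only 2 are given by ID.

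The hippocampus is a brain region needed for forming memories of events and places, and its dentate gyrus goes on making neurons in adult rodents. Aging is known to lower that production and to alter synapses and glia there. Running exercise is widely used in rodents to study how physical activity affects these processes. Bulk RNA from hippocampal tissue mixes neurons, glia and vessel cells, so fewer cells of a type and less RNA per cell cannot be told apart in any level given here.

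The rats were male, wild-type Fischer-344 animals, an inbred strain common in aging studies. The young groups were 6 months old and the old groups 20 months old. At each age rats were either exercise-trained or left sedentary for 10 weeks, and each of the resulting 4 groups is represented by 4 libraries from separate rats. All of the rats had also been through behavioral tests, and hippocampus was taken after the last of these. The labels used here do not say what kind of exercise was given. They say that soleus citrate synthase activity, a muscle enzyme measure, was used to judge the training. Marker genes of the hippocampus and of its cell types were not checked, because the IDs could not be paired with names.

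Library totals ranged from 8630396 to 14576687 counts and the genes with a count from 18145 to 19268. Old sedentary replicate 3 stood apart from its group. On the first principal component of log2 CPM, computed from the genes that are not among the 60, it had a score of 11.9, whereas replicates 1, 2 and 4 had scores from 44.2 to 49.1. The young sedentary libraries lay at 1.97 and 2.67 (replicates 1 and 3) and at 24.9 and 22.4 (replicates 2 and 4). The trained libraries were all below 0, from -39.3 to -15.8. The members' main values are therefore also given below without old sedentary replicate 3, an addition made after the values were seen. The sequencing lane is not given for any library, and lane and group therefore cannot be told apart.

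The members were mostly of low abundance. Their mean level over the 16 libraries had a median of 7.76 CPM and ranged from 2.14 to 289 CPM, while the median of all 13357 genes was 27.4 CPM. Of the 60, 24 had a mean below 5 CPM (40.0%, beside 12.3% of all genes). A mean of at least 20 CPM was found in 11 (18.3%, beside 59.1%). Summed over the 16 libraries a member had between 391 and 54156 counts, with a median of 1430.

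Over the 60 genes, the old sedentary mean was a median of 1.71 times the young sedentary mean, with a range from 1.51 to 4.68. The middle 50% of the genes lay between 1.57 and 1.91, so most of the set sat close to the limit that admitted it. A ratio of 2 was reached by 12 genes, beside 0.621% of all genes. The old trained mean was a median of 0.541 times the old sedentary mean (range 0.147 to 0.668). At 0.5 times or less were 24 genes, beside 4.04% of all genes. The young trained mean was a median of 0.951 times the young sedentary mean (range 0.809 to 1.16). Over all 13357 genes the medians of these 3 ratios were 1.03, 0.956 and 0.973. Without old sedentary replicate 3, the old over young sedentary ratio of the same 60 genes had a median of 1.91 (range 1.58 to 5.02), and the old trained over old sedentary ratio a median of 0.504 (range 0.119 to 0.641).

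The levels in single libraries show which rats made up these means. Each member's CPM was divided by its young sedentary mean, and the median was taken over the 60 genes in each library. It was 1.92 in old sedentary replicate 1, 1.81 in replicate 2, 1.13 in replicate 3 and 2.17 in replicate 4. The young sedentary libraries lay at 0.838, 1.21, 0.850 and 1.14 (replicates 1 to 4). The young trained libraries lay between 0.893 and 0.988 and the old trained libraries between 0.897 and 0.938. Old sedentary replicates 1, 2 and 4 were thus above all other libraries on this measure, while replicate 3 fell inside the young sedentary range. The 8 trained libraries were close together at both ages.

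**Figure D1:**
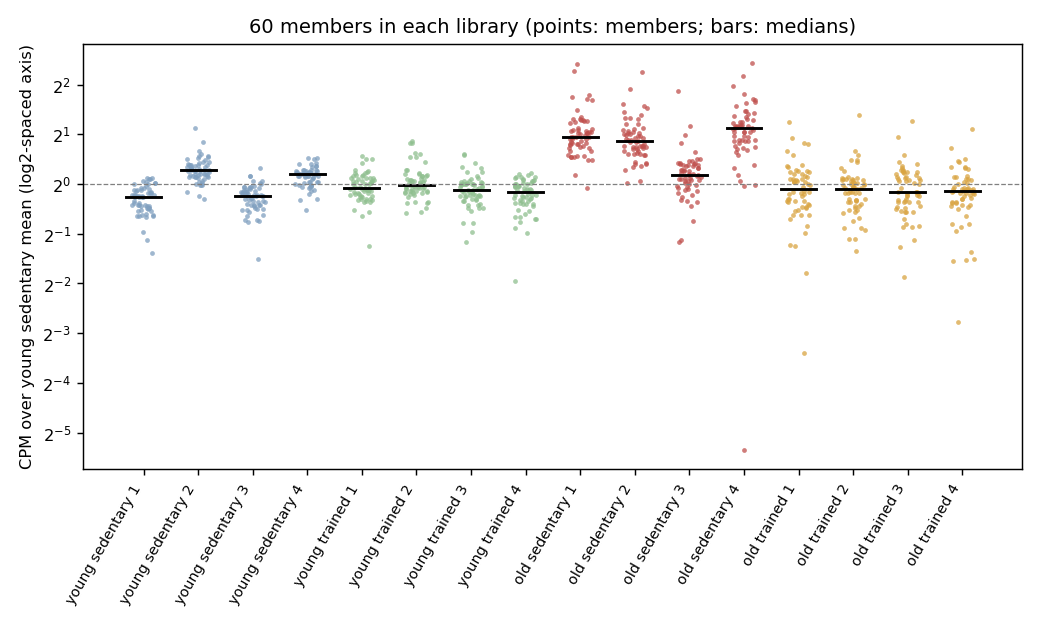
Level of each of the 60 members in each of the 16 libraries, as CPM over the young sedentary mean, on a log2-spaced axis. Points are genes and bars are medians. The medians of old sedentary replicates 1, 2 and 4 lie between 1.81 and 2.17, and that of replicate 3 lies at 1.13, within the young sedentary range of 0.838 to 1.21.

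On the summed level of the members, too, old sedentary replicates 1, 2 and 4 were above all other libraries. In sedentary rats the summed level was 1011 ± 199 CPM in the young and 1717 ± 505 CPM in the old group (SD, n = 4). In trained rats it was 969 ± 35.7 CPM in the young and 948 ± 22.5 CPM in the old group (SD, n = 4). The old sedentary values were 1905, 1610, 1078 and 2274 CPM in replicates 1 to 4. The young sedentary values were 853, 1218, 829.1 and 1143 CPM. Without replicate 3 the old sedentary sum was 1929 ± 333 CPM (SD, n = 3). Old sedentary replicate 3 was below young sedentary replicates 2 and 4 on the sum. The 3 most abundant members carried much of these sums, and without them the old sedentary values were 1028, 918, 566 and 1102 CPM, with the young sedentary values between 416 and 599.9 CPM.

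ENSRNOG00000018445 was the most abundant member. Its level was 205, 340, 207 and 291 CPM in young sedentary replicates 1 to 4, and 270, 252, 255 and 301 CPM in the young trained libraries. In the old sedentary libraries it was 383, 346, 251 and 623 CPM, and in the old trained libraries 228, 243, 210 and 226 CPM. Old sedentary replicate 4 alone was far above the rest, replicate 2 was barely above young sedentary replicate 2, and replicate 3 was inside the young sedentary range. The means were 261 ± 66.2 CPM in young and 401 ± 158 CPM in old sedentary rats, and 269 ± 22.6 CPM in young and 227 ± 13.8 CPM in old trained rats (SD, n = 4), so the difference of the sedentary means was smaller than the old sedentary SD. Without replicate 3 the old sedentary mean was 451 ± 150.5 CPM (SD, n = 3). This gene shows the pattern in its group means without showing it in each rat.

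ENSRNOG00000032844 had the highest old over young sedentary ratio, 4.68. It stood at 3.89, 3.22, 3.29 and 3.98 CPM in the young sedentary libraries and at 2.92, 4.93, 1.85 and 1.94 CPM in the young trained libraries. The old sedentary libraries were at 17.5, 17.2, 13.2 and 19.4 CPM and the old trained libraries at 8.57, 9.40, 8.67 and 7.78 CPM. No ranges overlapped between the old sedentary group and any other, and the old trained libraries were in turn above all 8 young ones. Sedentary means were 3.59 ± 0.393 CPM in young and 16.8 ± 2.62 CPM in old rats, and trained means 2.91 ± 1.43 CPM in young and 8.61 ± 0.664 CPM in old rats (SD, n = 4). Without replicate 3 the old sedentary mean was 18.0 ± 1.16 CPM (SD, n = 3). Its old trained mean was 2.39 times the young sedentary mean, the highest such ratio in the set, so for this gene the phrase "raised only in old sedentary rats" does not describe the data.

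**Figure D2:**
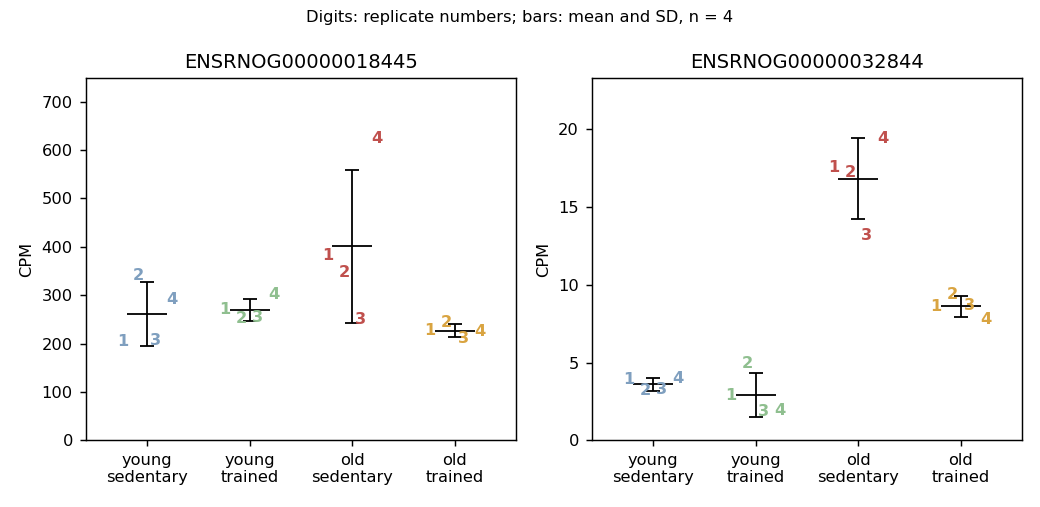
CPM of the most abundant member (ENSRNOG00000018445, left) and of the member with the highest old over young sedentary ratio (ENSRNOG00000032844, right) in the 4 groups. Digits are replicate numbers and bars are the mean and SD (n = 4). In the left panel old sedentary replicate 3 (251 CPM) lies among the young sedentary libraries, and in the right panel the old sedentary libraries (13.2 to 19.4 CPM) lie above all others.

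How many old sedentary libraries carried the pattern was counted per gene as the number that lay above all 12 libraries of the other groups. All 4 did so for 16 of the 60 members (26.7%), beside 2.57% of the 13357 genes. At least 3 did so for 50 members, beside 11.4% of all genes. Exactly 3 did so for 34 members (8.82% of all genes), 2 for 9 members (14.3% of all genes) and 1 for 1 member (22.5% of all genes). The rule asked for a high old sedentary mean, which favors genes with more such libraries than the background. Nothing is therefore read from the difference. The libraries contributed unequally. Replicate 1 lay above all 12 other libraries for 57 members, replicate 2 for 55, replicate 4 for 55 and replicate 3 for 18. Over all genes these shares were 28.1%, 27.6%, 24.1% and 8.12%.

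**Figure D3:**
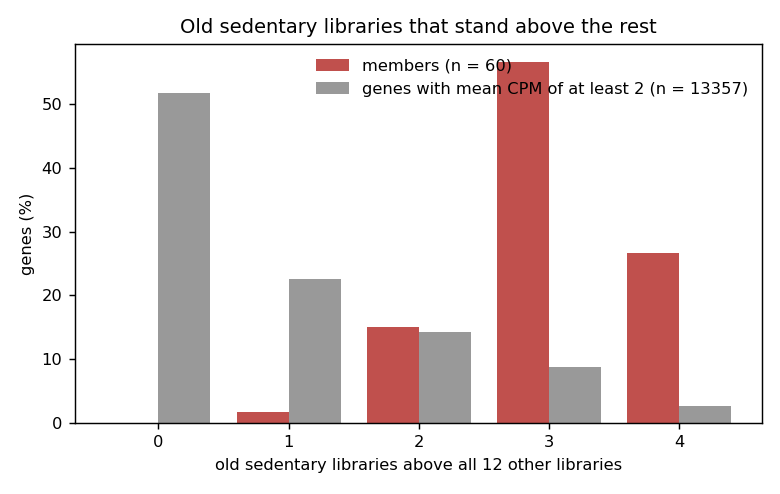
Share of genes by the number of old sedentary libraries that lay above all 12 libraries of the other groups, for the 60 members and for the 13357 genes with a mean of at least 2 CPM. Among the members, 34 had 3 such libraries and 16 had all 4.

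Applying the 2 old sedentary limits of the rule to single libraries gave a stricter count. A library met them when it was at least 1.5 times the young sedentary mean and the old trained mean was at most 0.67 times its level. Replicate 1 met both limits for 48 members, replicate 2 for 47 and replicate 4 for 50, but replicate 3 for 3. Over all genes these shares were 4.44%, 5.68% and 5.11% for replicates 1, 2 and 4 and 0.270% for replicate 3. By this count 2 members had all 4 libraries, 28 had 3, 26 had 2 and 4 had 1. Over all genes these shares were 0.0524%, 1.21%, 2.62% and 6.43%. The same limits, applied to the means, chose the members, so nothing is read from the difference.

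**Figure D4:**
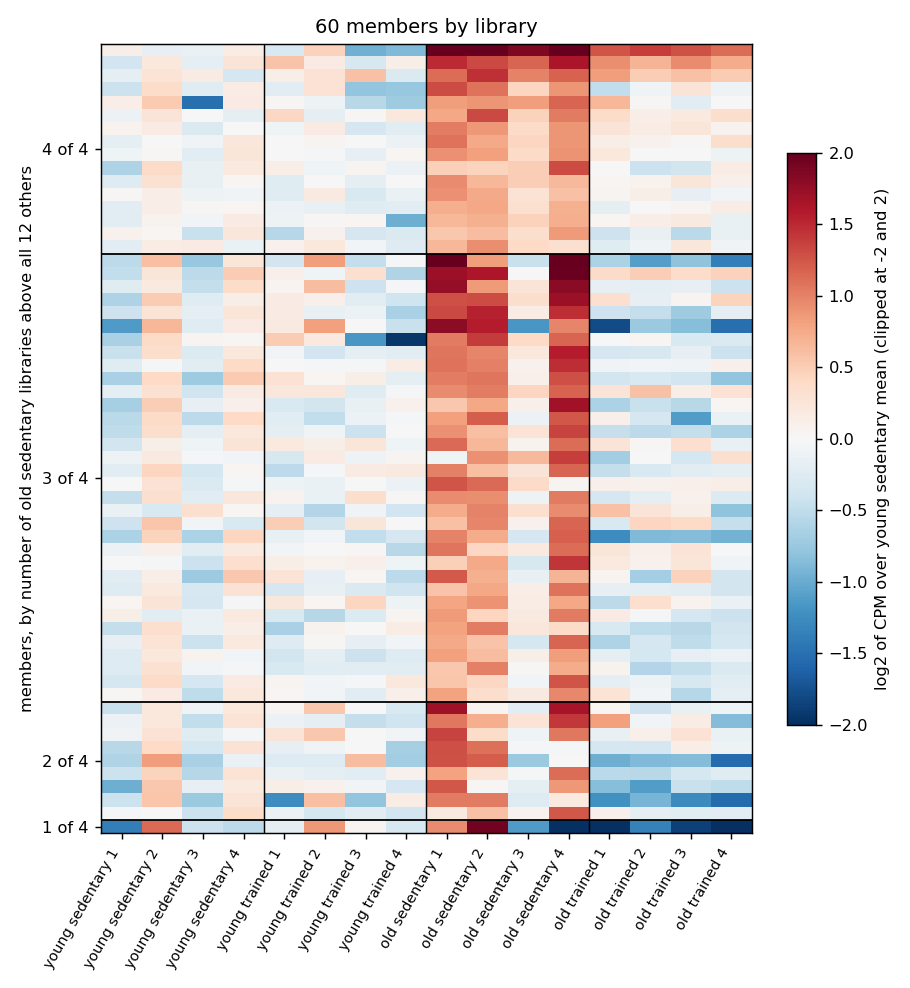
Each of the 60 members (rows) in the 16 libraries (columns), as the log2 of CPM over the young sedentary mean. Rows are grouped by the number of old sedentary libraries above all 12 others (16 members with 4, 34 with 3, 9 with 2 and 1 with 1) and ordered within a group by the old over young sedentary ratio, and the column of old sedentary replicate 3 is pale in most rows.

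Old sedentary replicate 3 was the lowest of its group for 55 of the 60 members, beside 28.9% of all genes. Its level was a median of 0.601 times the mean of the other old sedentary libraries, with a range from 0.160 to 0.907, so it was below that mean for each member. It lay within the range of the young sedentary libraries for 38 members (63.3%), above it for 20 (33.3%) and below it for 2 (3.33%). Over all genes these shares were 61.8%, 21.4% and 16.8%. All 4 old sedentary libraries lay above all 4 young sedentary ones for 18 members (5.85% of all genes), above all 4 old trained ones for 35 members (14.6% of all genes), and above all 8 trained ones for 24 members (10.3% of all genes).

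The 16 members carried by all 4 old sedentary libraries can be set beside the 32 carried by replicates 1, 2 and 4 alone. These subsets were formed from the levels themselves and are described without a test. The median old over young sedentary ratio was 1.72 in both subsets. The median old trained over old sedentary ratio was 0.634 in the first subset and 0.488 in the second, and the median old trained over young sedentary ratio was 1.06 and 0.868. Old sedentary replicate 3 was a median of 1.36 times the young sedentary mean in the first subset and 1.08 times in the second. The variation among young sedentary libraries, as the coefficient of variation (SD over mean), had a median of 14.0% in the first subset and 25.1% in the second. Mean levels were lower in the first subset, with a median of 4.89 CPM against 9.11 CPM. All 4 libraries carried 8 of the 24 members below 5 CPM, 5 of the 25 between 5 and 20 CPM, and 3 of the 11 above 20 CPM.

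Single members show how uneven the old sedentary levels could be. The member with the second highest old over young sedentary ratio (3.08) stood at 78.2, 26.3, 10.8 and 66.2 CPM in old sedentary replicates 1 to 4, and its young sedentary libraries were at 10.3, 22.4, 8.71 and 17.5 CPM. Its old trained libraries, at 5.72 to 9.50 CPM, overlapped the low end of the young sedentary range. The third highest (2.82) stood at 48.9, 45.8, 14.9 and 58.8 CPM in the old sedentary libraries. Its young sedentary libraries were at 10.7, 17.6, 10.4 and 21.2 CPM, so replicate 3 was again inside their range.

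The member with the lowest old trained over old sedentary ratio (0.147) was carried by a single library. Its old sedentary values were 7.02, 13.8, 1.67 and 0.0893 CPM, the last from 1 count, and its young sedentary values were 1.39, 7.96, 2.71 and 2.53 CPM. Its old trained libraries were between 0.348 and 1.43 CPM, overlapping the young libraries at young sedentary replicate 1 alone. At the other end, the member least uneven in old sedentary replicate 3 (0.907 times the other old sedentary libraries) stood at 3.93, 4.03, 3.89 and 4.91 CPM in that group. All 4 of these values were above the highest library elsewhere, at 3.48 CPM.

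The young sedentary libraries were also split on these genes. Replicates 2 and 4 both lay above replicates 1 and 3 for 43 of the 60 members (71.7%), beside 23.4% of all genes. Replicate 2 lay above all 8 trained libraries for 25 members, replicate 4 for 22, and replicates 1 and 3 for 1 each, and old sedentary replicate 3 did so for 26. Over all genes these shares were 15.6%, 20.2%, 19.9% and 20.3% in young sedentary replicates 1 to 4 and 19.6% in old sedentary replicate 3. Replicate 1 was the lowest young sedentary library for 30 members and replicate 3 for 25. The young sedentary libraries that were high on the members were those at 24.9 and 22.4 on the component of the other genes, and the low ones those at 1.97 and 2.67. Whether that component had a part in the members' pattern was not tested. The totals were 14576687 and 11056479 counts in replicates 2 and 4, and 10037058 and 10334164 counts in replicates 1 and 3.

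Each library was also described on genes that it took no part in choosing. The rule was applied without 1 library at a time, and the left-out library was set against the young sedentary mean over the genes then chosen. Without old sedentary replicate 1, 54 genes were chosen, and that library stood at a median of 1.69 times the young sedentary mean. For replicate 2 the values were 61 genes and 1.64 times, and for replicate 4 they were 46 genes and 1.86 times. For replicate 3 they were 124 genes and 1.07 times. Left out, replicate 3 was thus near the young sedentary level, and the others were well above it. Over all genes the medians of the same ratio were 1.03, 1.03, 1.005 and 1.01 for replicates 1 to 4. Against the old trained mean the left-out libraries stood at 1.79, 1.66, 1.14 and 1.79 times (replicates 1 to 4). A left-out library reached 1.5 times the young sedentary mean for 57.4%, 62.3%, 4.84% and 65.2% of the chosen genes, and for 6.04%, 6.58%, 0.914% and 6.18% of all genes. It lay above all 12 libraries of the other groups for 74.1%, 75.4%, 16.9% and 71.7% of the chosen genes. Over all genes these shares were 28.0%, 27.5%, 8.09% and 23.9%. The young sedentary, young trained and old trained libraries still helped to choose these genes. The rule favors genes that are low in them, and the left-out library was compared with those same libraries. The values are therefore a description and no independent check of the pattern. By them, left-out old sedentary replicates 1, 2 and 4 were well above the young sedentary level and replicate 3 was near it.

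Left-out libraries of the other groups were treated in the same way, as an addition made after the values were seen. Young sedentary replicates 2 and 4 stood at 1.40 and 1.24 times the mean of the remaining young sedentary libraries, over 116 and 96 chosen genes. Replicates 1 and 3 stood at 0.813 and 0.835 times, over 42 and 52 genes. Against the old trained mean, young sedentary replicates 1 to 4 stood at 0.924, 1.51, 0.924 and 1.34 times when left out. They reached 1.5 times the remaining young sedentary mean for 0%, 32.8%, 0% and 11.5% of the chosen genes. Over all genes these shares were 1.26%, 2.14%, 0.876% and 1.06%. The left-out trained libraries lay between 0.840 and 1.02 times. The value of 1.07 for left-out old sedentary replicate 3 is over the full young sedentary mean and on another list of genes. It therefore cannot be ranked against those of young sedentary replicates 2 and 4.

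**Figure D5:**
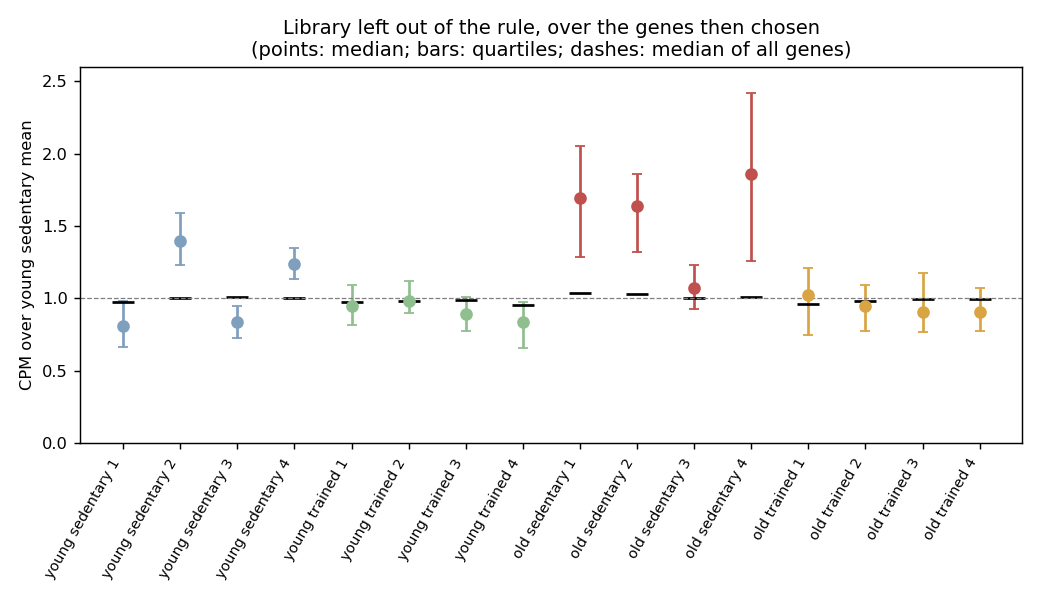
Level of each library when it was left out of the rule, over the genes chosen from the other 15 libraries, as CPM over the young sedentary mean (the remaining 3 libraries for a young sedentary one). Points are medians over those genes, bars their quartiles and dashes the median over all genes with a mean of at least 2 CPM. Old sedentary replicates 1, 2 and 4 stand at 1.69, 1.64 and 1.86, and replicate 3 at 1.07.

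The number of genes that met the rule depended on single libraries. All 60 members were among the 124 genes found without old sedentary replicate 3, so that library kept out 64 further genes. Without young sedentary replicate 2 there were 116 genes, 52 of them members, and without young sedentary replicate 4 there were 96, 58 of them members. Leaving out any other library gave between 42 and 69 genes. With group medians in place of means, 80 genes met the limits, 45 of them members. With CPM scaled by TMM (trimmed mean of M values, which corrects for differences in RNA composition) 45 genes met them, 40 of them members. Under TMM the members' median old over young sedentary ratio was 1.66.

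The old trained levels can also be set beside those of young rats. The old trained mean was a median of 0.916 times the young sedentary mean, with a range from 0.227 to 2.39, and it was between 0.8 and 1/0.8 times that mean for 41 of the 60 genes (68.3%), beside 84.9% of all genes. It was lower for 14 (23.3%, beside 10.6%) and higher for 5 (8.33%, beside 4.48%). Against the young trained mean the median was 0.973 times, again with 41 genes within those bounds, beside 79.5% of all genes. It was lower for 12 (20.0%, beside 7.13%) and higher for 7 (11.7%, beside 13.4%). The ranges of the young trained and old trained libraries overlapped for 44 members (73.3%), beside 82.3% of all genes. All 4 old trained libraries were below all 4 young trained ones for 11 members (8.31% of all genes) and above them for 5 (9.39% of all genes). This ratio is the product of those used by the rule, so it is only partly independent of the choice.

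The spread of the members among rats of the same group was widest in sedentary rats. The median coefficient of variation was 31.1% in old sedentary and 22.3% in young sedentary rats, against 12.8% and 9.13% over all genes. In young trained and old trained rats it was 15.4% and 12.9%, against 9.39% and 9.63%. Counting error alone would give the members a median of 8.78% in old sedentary and 11.7% in young sedentary libraries. In the trained groups it would give 11.9% and 12.1%. Without old sedentary replicate 3 the old sedentary median was 19.3%.

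The members also varied together within groups. After group means were subtracted from log2 CPM, the median Pearson r between pairs of members was 0.465 over the 16 libraries, and 92.9% of the 1770 pairs had r above 0. Over all genes the median was 0.0045. In the 8 sedentary libraries the median was 0.658, and in the 8 trained libraries it was 0.0504. Without old sedentary replicate 3 it was 0.258 over the remaining 15 libraries. These pairs share the same few libraries and their depth, and a rule that favors genes with the same high libraries favors such correlation, so the values are a description.

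The fit across all genes gives the error of each difference. edgeR's quasi-likelihood test was run on 15035 genes with 1 mean per group, and all 60 members passed its filter on low counts. For old against young sedentary rats, 17 of the 60 were called higher at adjusted p below 0.05, beside 1.05% of all genes, and 0 lower, beside 0.459%. The members' log2 fold changes had a median of 0.73 with a median standard error of 0.22. For old trained against old sedentary rats, 52 were called lower, beside 12.6% of all genes, with a median log2 fold change of -0.82 and a median standard error of 0.22. The rule used both contrasts, which share the old sedentary libraries, so nothing is read from these counts. For age in sedentary rats 43 members were not called. At an unadjusted p below 0.05, 56 members were higher, beside 1429 of the 15035 genes higher and 1569 lower. The rule chose on this contrast, so nothing is read from the 56 either.

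Single libraries decided how many members were called for age in sedentary rats. Leaving out old sedentary replicate 3 gave 50 members and 13.2% of all genes, in both directions together, against 17 members and 1.51% of all genes with it. The count was 6, 8 and 7 without old sedentary replicates 1, 2 and 4, beside 0.297%, 0.628% and 0.383% of all genes. It was 6, 5 and 11 without young sedentary replicates 1, 3 and 4, beside 0.290%, 0.250% and 1.06%. The calls over all genes thus moved in the same direction as those of the members. The DESeq2 Wald test called 32 members and 6.05% of all genes. The members' median log2 fold change without old sedentary replicate 3 was 0.86 between the sedentary ages and -0.92 between the old groups. The count for training in old rats ranged from 35 to 58 when 1 library was left out, and the share of all genes from 17.4% to 29.7%, both highest without old sedentary replicate 3.

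For young trained against young sedentary rats edgeR called 0 of the 60 members in either direction, beside 6.78% of all genes higher and 10.3% lower. The rule kept only genes with similar young means. No member had an unadjusted p below 0.05 there, beside 2185 of the 15035 genes higher and 2833 lower. Neither DESeq2 nor limma voom called a member, beside 20.2% and 29.2% of all genes. Without young trained replicate 2 edgeR called 1 member, beside 13.4% of all genes. The interaction of age and training asks whether the training difference differed between the ages. edgeR called 0 members, beside 0% of all genes in each direction. At an unadjusted p below 0.05, 44 members were lower, beside 870 of the 15035 genes lower and 1163 higher. DESeq2 called 1 member, beside 0.239% of all genes, and limma voom 0, beside 0%. Without old sedentary replicate 3 edgeR called 18 members, beside 3.84% of all genes. The members' interaction had a median log2 value of -0.77 and its standard error a median of 0.32. By the CPM means, the limits of the rule make this interaction negative for every member. Nothing is read from its size or from the interaction counts.

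For old against young trained rats edgeR called 1 member higher, beside 3.33% of all genes, and 0 lower, beside 1.65%. DESeq2 called 2 members, beside 8.23% of all genes, and limma voom 1, beside 8.97%. At an unadjusted p below 0.05, 3 members were higher and 4 lower, beside 1942 and 1465 of the 15035 genes. The member called was ENSRNOG00000032844, with a log2 fold change of 1.55 (SE 0.23). The median log2 fold change of the members was -0.05, with a median standard error of 0.23. A share of 1 in 60 is below the background and is not a result about the members.

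The limits of the rule cut through a continuous range of values. Of the 13357 genes, 444 had an old sedentary mean of at least 1.5 times the young sedentary mean, and 313 of these also had an old trained mean of at most 0.67 times the old sedentary one. The limit on the young groups then took 60 of the 313: in 233 the young trained mean was below 0.8 times the young sedentary mean, and in 20 it was above 1/0.8 times. Most genes high in old sedentary and low in old trained rats were therefore also lower in young trained than in young sedentary rats, by the means. The members closest to the limit on the sedentary ratio stood at 1.513 and 1.515, and the closest genes left out at 1.497 and 1.493. For the old trained over old sedentary ratio the closest members stood at 0.6679 and 0.6675 and the closest genes left out at 0.6727 and 0.6752. For the young ratio the values were 0.8089 and 0.8116 inside and 0.7979 and 0.7945 outside the lower limit, and 1.157 and 1.156 inside and 1.254 and 1.255 outside the upper limit. For the mean level they were 2.138 and 2.158 CPM inside and 1.991 and 1.988 CPM outside.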

How the data were processed

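The deposited file holds raw counts per Ensembl gene ID, whole numbers with no normalization, for 16 hippocampal libraries. Poly(A) RNA was sequenced, per the labels' protocols. Per the submitters' processing notes, the build was Rnor_6.0 and the tools were HTSeq, TopHat2 2.1.1, Trimmomatic, FastQC, DESeq2 and SAMtools. The sources used here state no strand setting or annotation release, which leaves overlapping, antisense and near-identical genes uncertain. Groups came from the sample titles.

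CPM was computed from column sums. Counts were tested with edgeR 4.0.16 in R 4.3.3 (filterByExpr, TMM, robust quasi-likelihood fit over all 16 libraries, 12 residual degrees of freedom, 2-sided, Benjamini-Hochberg adjustment over 15035 genes), and the test was tested on simulated counts. Alternatives were voom with quality weights (limma 3.58.1), DESeq2's size factors and its Wald test (1.42.0), no filter, a replicate block, leaving out each library, and other limits or scalings of the rule. The members and lists were chosen with earlier results of these data known. The 34 gene lists drawn up by symbol could not be applied, since 0 IDs matched the reference table (assembly GRCr8). The 2 IDs printed are the first by mean CPM and by old over young sedentary ratio, and other members are given by rank. The p-values set a difference between groups against the spread between these libraries.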

Additional observations from a re-analysis of the deposited data

Results flagged for a closer look

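In 32 sets of 4 libraries, formed from library totals, member levels, the 2 named genes and the first component of the other genes, a library was looked for whose gap to its nearest neighbor took up most of the range of its group. It was found in 2 sets, and chance marks about 1 in 20. On the first component of the genes that are not members, the score of old sedentary replicate 3 was 11.9, against 44.2 to 49.1 for replicates 1, 2 and 4. Old trained replicate 4 had a summed member level of 915 CPM, and the other old trained libraries lay between 957 and 964 CPM, a small difference in a group with an SD of 22.5 CPM.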

How the results depend on the processing

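The number of genes that met the rule was 322 with no limit on mean CPM, 36 with a mean of at least 5 CPM, 9 with ratios of at least 2 and at most 0.5, and 114 with the young ratio from 0.67 to 1.5. Leaving out 1 library gave 42 to 124 genes. The count of members with all old sedentary libraries above the others was 16 to 48 on leaving out 1 library, with 48 without old sedentary replicate 3. Fewer libraries then had to lie above the rest. Over all genes, 9.37% had replicates 1, 2 and 4 above the other groups, beside 2.57% with all 4, so the background rose too. Called members ranged, on leaving out 1 library, from 5 to 50 for age in sedentary rats, 35 to 58 for training in old rats, 0 to 1 for training in young rats, 0 to 18 for the interaction and 1 to 2 for age in trained rats. In the same order, the shares of all genes ranged from 0.250% to 13.2%, 17.4% to 29.7%, 8.50% to 19.7%, 0% to 3.84% and 1.56% to 6.91%. The DESeq2 Wald test called 32 for age in sedentary rats, 1 for the interaction and 2 for age in trained rats. The shares of all genes were 6.05%, 0.239% and 8.23%. With a replicate block the counts of called members were 24 for age in sedentary rats, 50 for training in old rats, 0 for training in young rats, 0 for the interaction and 1 for age in trained rats. The shares of all genes with this block were 3.72%, 24.9%, 18.9%, 0% and 6.49%, against 1.51% without it for age in sedentary rats. Replicate numbers name separate rats. Same-numbered libraries correlated above 0.1 in 13 of 24 pairs, with r from -0.299 to 0.538. Of the 16 libraries, 9 correlated best with their own number. The main fit assumed no pairing, and whether same-numbered libraries had anything in common was not tested. The cause of the shifts in the counts was not tested either. The members below 5 CPM have the fewest counts, and whether depth had a part in the shifts was not tested.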

Other observations

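With the roles of the groups exchanged, an addition made after the values were seen, the same limits took 117 genes that were low in old sedentary rats. For young trained rats they took 17 high and 214 low genes, for old trained rats 20 high and 37 low genes, and for young sedentary rats 4 high and 3 low genes. High genes were thus most numerous for the old sedentary group and low genes for the young trained group. No test was made of these counts.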
